A study of Mus musculus with 20 samples.

Results

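The genes described here are 32 genes of astrocytes and radial glia, measured in the hippocampus and cortex of mouse pups on postnatal day 7. They were chosen by their gene symbols, as genes known from general knowledge to be used by these cells. Earlier results of these data were known when they were chosen. All 32 were found among the 47729 genes of the count files, and all 32 passed the filter on low counts in every comparison. The libraries came from 5 WT mice (numbered 1 to 5) and 5 Ube3aOE mice (numbered 6 to 10), all C57Bl/6J pups of both sexes, and each mouse gave 1 cortex and 1 hippocampus library, 20 in all. Ube3aOE mice carry extra copies of Ube3a, which encodes a ubiquitin ligase, brought in on a bacterial artificial chromosome that also holds the sequence around the gene, and the WT mice lack this transgene. The RNA was taken from dissected tissue holding all its cell types, so that fewer cells of a type and less RNA per cell cannot be told apart. The question behind the sequencing was whether the added Ube3a changes the transcriptome, and the pairs of tissues also allow the regions to be compared.

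Astrocytes take up the glutamate that neurons release, buffer potassium and water, and hand metabolites to neurons through gap junctions and transporters. In rodents they arise from radial glia around birth, and the first postnatal weeks are the time when they multiply, spread their processes and switch on the transporters and enzymes of the mature cell. In the hippocampus, radial glia-like stem cells of the dentate gyrus remain next to the astrocytes and use many of the same genes. Several of the 32 genes are also used elsewhere: Apoe and Sparc by microglia, Sparc by blood vessels, Clu by choroid plexus and ependymal cells, S100b by cells of the oligodendrocyte lineage, and Slc7a11 and Gjb6 by the meninges.

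The libraries held 14191093 to 16752326 reads counted on genes. Levels are given in CPM, the reads of a gene relative to the reads of its library, scaled with TMM factors. Ube3a lay at 57.3 to 77.0 CPM in WT and 142 to 194 CPM in Ube3aOE hippocampus. In cortex it lay at 53.5 to 69.7 CPM in WT and 129 to 182 CPM in Ube3aOE mice. Every library thus went with its genotype label, and these values do not check the tissue label. The cortex library of WT mouse 2 stood apart, with 69.7% of its reads counted on genes against 76.0% to 81.2% in the other 19. In the hippocampus of Ube3aOE mice 7 and 9 the summed level of 11 choroid plexus genes was 2089 and 415 CPM, against 52.8 to 84.1 CPM in the other 8 hippocampus libraries. Values without these libraries are given for some of the results they touch, and not for every gene.

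The promoters of 5 of the genes with the largest differences between the regions are shown first, as the 250 bases before the start of transcription in RefSeq (build GRCm38.p6), read 5′ to 3′ on the strand of the gene. They are Gfap (minus strand, chr11:102897201-102897450), Id4 (plus strand, chr13:48260866-48261115), Ntsr2 (plus strand, chr12:16653220-16653469), Slc1a3 (minus strand, chr15:8710808-8711057) and Gjb6 (minus strand, chr14:57133612-57133861), of which the former 4 were higher in hippocampus and Gjb6 was higher in cortex. Capitals mark matches on either strand to TTCNNNGAA, the site of STAT factors, and to TATAAA, the TATA box.
Gfap: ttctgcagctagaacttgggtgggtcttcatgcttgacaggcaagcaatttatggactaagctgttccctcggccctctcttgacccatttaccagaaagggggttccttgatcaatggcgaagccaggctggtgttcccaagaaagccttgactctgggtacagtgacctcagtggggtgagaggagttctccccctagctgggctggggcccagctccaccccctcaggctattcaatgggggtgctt
Id4: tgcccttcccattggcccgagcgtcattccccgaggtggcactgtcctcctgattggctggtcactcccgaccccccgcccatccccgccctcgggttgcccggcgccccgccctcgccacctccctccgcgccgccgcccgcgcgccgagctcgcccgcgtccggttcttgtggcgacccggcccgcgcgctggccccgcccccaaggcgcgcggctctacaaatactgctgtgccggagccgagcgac
Ntsr2: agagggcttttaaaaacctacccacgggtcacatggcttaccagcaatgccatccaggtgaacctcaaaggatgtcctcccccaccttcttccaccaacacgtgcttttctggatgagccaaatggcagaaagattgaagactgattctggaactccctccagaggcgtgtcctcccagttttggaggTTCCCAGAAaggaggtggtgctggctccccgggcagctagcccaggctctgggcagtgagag
Slc1a3: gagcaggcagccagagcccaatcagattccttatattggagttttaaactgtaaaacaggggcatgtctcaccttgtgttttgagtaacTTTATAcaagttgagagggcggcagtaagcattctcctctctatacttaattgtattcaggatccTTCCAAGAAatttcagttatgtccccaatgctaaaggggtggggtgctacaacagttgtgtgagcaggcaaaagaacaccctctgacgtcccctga
Gjb6: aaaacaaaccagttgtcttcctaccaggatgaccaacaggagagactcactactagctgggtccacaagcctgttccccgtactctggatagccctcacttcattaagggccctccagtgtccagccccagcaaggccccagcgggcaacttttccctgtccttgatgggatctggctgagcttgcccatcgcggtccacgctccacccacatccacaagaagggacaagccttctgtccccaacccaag

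Such windows were found for 26 of the 32 genes. STAT signaling switches on astrocyte genes around birth, and its site was found in the windows of 4 of the 26 (Slc1a3, Ntsr2, Acsbg1 and Slc7a11; 15.4%), against 7.01% of all 32817 windows of this length. In Slc1a3 the match began 96 bases and in Ntsr2 62 bases before the start. The letters TTGGCA, a site of nuclear factor I, were found in Hepacam, Aldoc and S100b (3 of 26, 11.5%, against 12.3% of all windows), and the SOX core ACAAAG in Slc7a11 and Apoe (7.69% against 16.5%). The TATA box letters were found in Slc1a3, Slc25a18 and Ndrg2 (11.5% against 12.4%). E-box letters, CANNTG, which can overlap the other motifs, were found in 19 of 26 (73.1% against 66.2%). The window of Id4 was 75.6% G and C, that of Gfap 55.6% and that of Slc1a3 44.8%, where the median of all windows was 52.4%. A match says that these letters are present, and no binding was measured.

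The 32 genes differed widely in level. Compared per kilobase of exon, Fabp7 (brain lipid-binding protein, a marker of radial glia and young astrocytes) was the highest in both regions, at 466 ± 58.0 CPM per kilobase in hippocampus and 405 ± 48.6 in cortex (mean ± SD over 10 libraries). Apoe, the lipid carrier of the brain, stood at 419.8 ± 49.6 and 266 ± 27.1, and Sparcl1 (hevin), a secreted protein that promotes synapses, at 373 ± 45.2 and 361 ± 32.6. Fabp7, Apoe and Sparcl1 overlapped in their ranges in hippocampus. Glul (glutamine synthetase) followed at 140.4 ± 17.9 and 138 ± 17.7, with no overlap with the genes above it.

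A middle block held Ndrg2, Atp1b2, Sparc, Clu, Aldoc, Slc6a11, Mlc1, Slc1a3, Gfap and Slc1a2, from 66.1 to 106 CPM per kilobase in hippocampus, and neighbours within this block overlapped in their libraries. Gfap, the intermediate filament protein by which astrocytes are usually stained, was in place 13 of 32 in hippocampus (67.6 ± 18.2) and in place 14 in cortex (27.0 ± 5.31). At the low end stood Chrdl1, a secreted BMP antagonist, at 1.56 in hippocampus and 2.50 in cortex, Slc7a11, the cystine-glutamate exchanger, at 1.51 and 1.74, and Gjb6, connexin 30, at 1.38 and 2.74. The library with the fewest reads on a member was that of WT mouse 2, with 33 reads on Gjb6 in hippocampus.

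**Figure D1:**
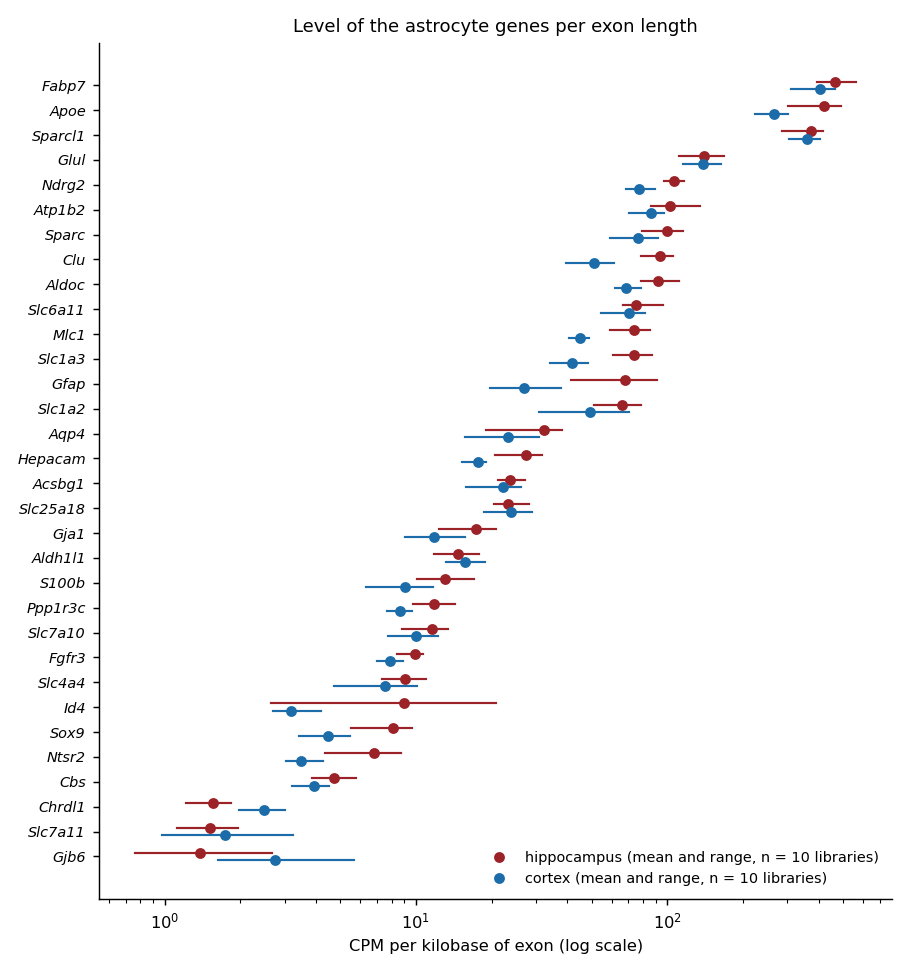
Level of the 32 astrocyte genes in CPM per kilobase of exon (log scale), with points for the mean and lines for the range over 10 libraries of each region, in order of the hippocampus level. Fabp7 is at the top with 466 in hippocampus and Gjb6 at the bottom with 1.38.

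Hippocampus and cortex were then compared over all 20 libraries, with positive log2 fold changes for genes higher in hippocampus. Of the 32 genes, 22 (68.8%) were higher in hippocampus at an adjusted p under 0.05, 2 (6.25%) were lower and 8 did not pass the test. Over all 15661 genes tested, 25.3% were called higher and 25.6% lower, and among the 11403 genes at least as abundant as the least abundant of the 32, 23.8% were higher and 29.6% lower. Beyond 0.5 on the log2 scale, 11 of the 32 (34.4%) were higher, against 12.0% of all genes, and 2 were lower (6.25%, against 7.24%). The median log2 fold change of the 32 was 0.39, where that of all genes was -0.01. Summed over the 32 genes, the level in hippocampus was 1.31 ± 0.11 times that in cortex (mean ± SD of the ratio within 10 mice, range 1.10 to 1.47).

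**Figure D2:**
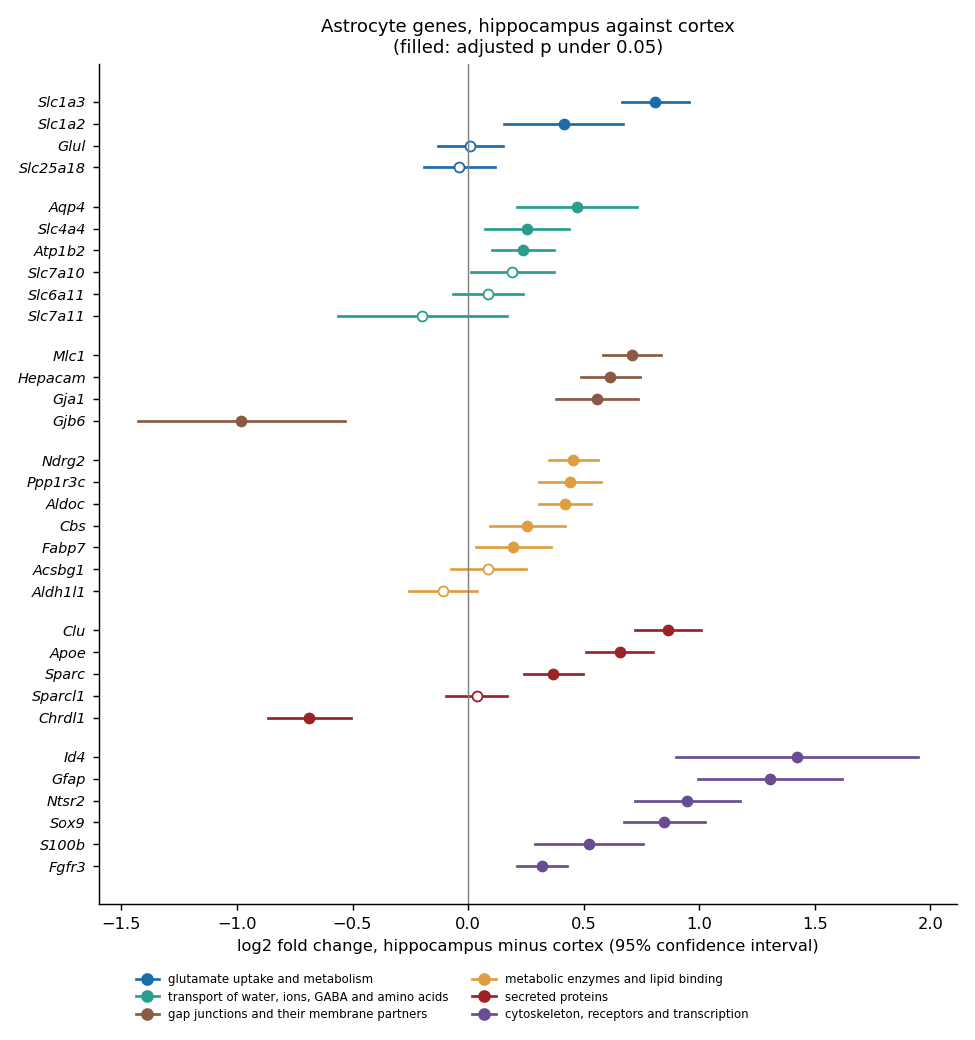
log2 fold change of each of the 32 genes between hippocampus and cortex, with 95% confidence intervals from edgeR over 20 libraries, grouped and colored by role. Filled points passed an adjusted p under 0.05: 22 lie to the right of 0 and Gjb6 and Chrdl1 to the left.

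Genes of the cytoskeleton, of receptors and of transcription were all higher in hippocampus (6 of 6, median 0.90). Gfap lay at 108, 118, 114, 95.3 and 125 CPM in the cortex of WT mice 1 to 5 and at 305, 192, 383, 380.4 and 331 CPM in their hippocampus. The Ube3aOE mice 6 to 10 had 83.0, 90.3, 159, 135 and 109.6 CPM in cortex and 321, 246, 317, 174 and 201 CPM in hippocampus. Each of the 10 hippocampus libraries exceeded each of the 10 cortex libraries, the lowest being those of Ube3aOE mouse 9 and WT mouse 2. The log2 fold change was 1.31 ± 0.15 (SE), with an adjusted p of 9.84e-07 in edgeR's quasi-likelihood test.

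Id4, an inhibitor of helix-loop-helix factors that is used by neural stem cells and young astrocytes, had the largest difference of the 32 (1.42 ± 0.25, adjusted p = 0.000127 by edgeR). In cortex it lay at 10.4, 11.9, 16.1, 12.4 and 11.7 CPM in WT and 12.8, 11.0, 12.9, 12.5 and 11.4 CPM in Ube3aOE mice, a narrow range. In hippocampus it lay at 22.4, 10.2, 25.5, 45.0 and 23.6 CPM in WT mice 1 to 5 and 23.4, 53.7, 23.2, 36.3 and 80.2 CPM in Ube3aOE mice 6 to 10. Mice 10, 7, 4 and 9 stood above the rest, 9 of the 10 hippocampus libraries exceeded every cortex library, and that of WT mouse 2 was below every one. Otx2, a transcription factor of the choroid plexus list that is also used in the developing thalamus and midbrain, lay at 6.67, 7.12, 3.22 and 1.73 CPM in the hippocampus libraries of these 4 mice and at 0.366 to 1.31 CPM in the other 6. Its part in the Id4 difference was not tested. Without mouse 10 the Id4 difference was 1.24, and without the hippocampus of mice 7 and 9 it was 1.41.

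Ntsr2, a neurotensin receptor found mainly on astrocytes, lay at 13.3, 9.47, 9.49, 9.54 and 11.5 CPM in WT cortex against 27.2, 14.4, 22.6, 27.2 and 26.5 CPM in WT hippocampus. In Ube3aOE mice the values were 10.7, 9.86, 11.3, 11.5 and 12.1 and 23.1, 13.6, 18.5, 19.2 and 20.1 CPM. The groups did not overlap, though the hippocampus of mice 2 and 7 came close to the cortex of mouse 1 (0.95 ± 0.11, adjusted p = 4.51e-07 by edgeR). Sox9, a transcription factor that starts and keeps astrocyte identity, lay at 17.3, 14.2, 18.6, 15.1 and 17.5 CPM in WT and 20.7, 21.9, 22.7, 18.5 and 19.1 CPM in Ube3aOE cortex. Its hippocampus values were 28.5, 22.8, 37.0, 32.7 and 38.6 CPM in WT and 40.1, 39.1, 32.1, 32.3 and 31.0 CPM in Ube3aOE mice. All of the latter exceeded all cortex values, by the smallest margin in WT mouse 2 (0.85 ± 0.08, adjusted p = 5.82e-08 by edgeR). S100b, a calcium-binding protein of maturing astrocytes (0.52 ± 0.11), and Fgfr3, an FGF receptor of astrocytes and their precursors (0.32 ± 0.05), were higher in the hippocampus of 10 of 10 mice.

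**Figure D3:**
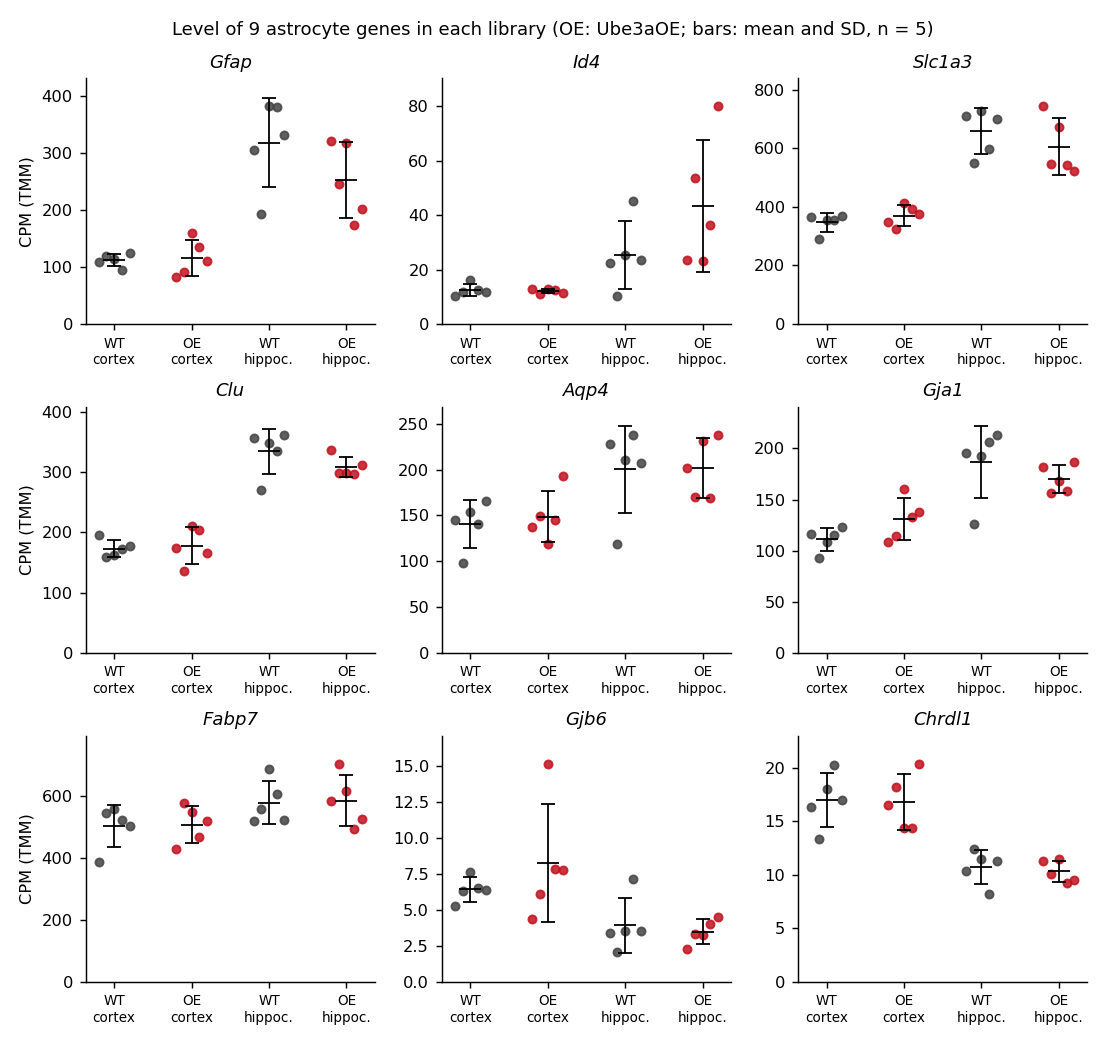
Level of 9 of the genes in each library in CPM with TMM factors (linear axes from 0), with points for single libraries in order of the mouse number, gray for WT and red for Ube3aOE, and bars for mean and SD (n = 5). Gfap, Slc1a3 and Clu are higher in every hippocampus library than in any cortex library, Chrdl1 is lower in every one, and Id4 spreads from 10.2 to 80.2 CPM in hippocampus.

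The gap junction genes moved apart. Gja1, connexin 43, which is the main connexin of astrocytes, lay at 116, 92.6, 109, 115 and 123 CPM in the cortex and 196, 126, 192, 206 and 214 CPM in the hippocampus of WT mice. In Ube3aOE mice it lay at 108, 114, 161, 133 and 138 and 182, 156, 168, 158 and 187 CPM. It was higher in hippocampus in 10 of 10 mice, least in mouse 8, and the regions overlapped through the hippocampus of WT mouse 2 and the cortex of mouse 8 (0.56 ± 0.09, adjusted p = 1.98e-05 by edgeR). Gjb6, the other astrocyte connexin, went the other way, with 5.24, 6.31, 7.62, 6.53 and 6.34 CPM in WT cortex and 3.40, 2.04, 3.52, 7.12 and 3.54 CPM in WT hippocampus. Its Ube3aOE values were 4.36, 6.12, 15.2, 7.80 and 7.79 CPM in cortex and 2.28, 3.32, 3.22, 4.04 and 4.53 CPM in hippocampus. It was lower in the hippocampus of 9 of 10 mice, WT mouse 4 being the exception (-0.98 ± 0.21, adjusted p = 0.000782 by edgeR).

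The highest Gjb6 value of each region came from a library high in meningeal fibroblast genes, whose part was not tested. The summed level of the 5 genes of that list (all detected in all 20 libraries) was 311 CPM in the cortex of mouse 8, against 60.7 to 189.6 CPM in the other cortex libraries, and 224 CPM in the hippocampus of mouse 4, against 61.8 to 198 CPM in the others. Without mouse 8 the Gjb6 difference was -0.80, and without mouse 4 it was -1.14, both with an adjusted p under 0.05. Mlc1 and Hepacam, membrane proteins that bind each other and are mutated in a leukodystrophy with cysts, were both higher in hippocampus. Mlc1 lay at 124, 116, 122, 125 and 137 CPM in WT and 132, 113, 128, 126 and 136 CPM in Ube3aOE cortex. In hippocampus it lay at 219, 166, 238, 223 and 238 and 231, 185, 203, 176 and 196 CPM, above every cortex value (0.71 ± 0.06, adjusted p = 8.03e-09 by edgeR).

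Hepacam, which encodes GlialCAM, lay at 57.4, 50.9, 59.1, 59.3 and 63.5 CPM in WT and 59.1, 57.7, 62.2, 60.5 and 63.8 CPM in Ube3aOE cortex. Its hippocampus values were 85.3, 68.7, 107, 97.5 and 98.0 CPM in WT and 97.5, 94.8, 97.6, 83.1 and 84.2 CPM in Ube3aOE mice. The regions did not overlap, and mouse 2 again gave the lowest hippocampus value (0.62 ± 0.06, adjusted p = 6.85e-08 by edgeR).

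Of the 4 genes of glutamate uptake and metabolism, the 2 transporters were higher in hippocampus and the enzyme and the mitochondrial carrier did not pass the test. Slc1a3 (GLAST), the glutamate transporter of radial glia and young astrocytes, lay at 365, 291, 354, 354 and 369 CPM in WT and 349, 323, 411, 391 and 374 CPM in Ube3aOE cortex. In hippocampus it lay at 711, 550.1, 727, 599 and 699.9 and 745, 547, 672, 542 and 521 CPM. No hippocampus library fell into the cortex range, of which the cortex of WT mouse 2 was the lowest (0.81 ± 0.07, adjusted p = 1.10e-08 by edgeR). Slc1a2 (GLT-1), the transporter that carries most uptake in the adult forebrain, lay at 679.8, 406, 544, 653 and 816 CPM in WT and 579, 453, 729, 694 and 928 CPM in Ube3aOE cortex. Its hippocampus values of 957, 889.7, 939, 813 and 974 CPM in WT and 873, 669.6, 1032, 758 and 772 CPM in Ube3aOE mice overlapped these. Mouse 10 had more Slc1a2 in cortex than in hippocampus, and the other 9 mice had less (0.41 ± 0.12, adjusted p = 0.0089 by edgeR). Glul, which turns glutamate into glutamine (0.01 ± 0.07), was higher in the hippocampus of 6 of 10 mice, and Slc25a18, a glutamate carrier of mitochondria (-0.04 ± 0.07), in 5 of 10.

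Of the 6 genes for transport of water, ions, GABA and amino acids, 3 were higher in hippocampus. Aqp4, the water channel of astrocyte endfeet, lay at 145, 97.7, 154, 141 and 166 CPM in WT and 137, 149, 119, 145 and 193 CPM in Ube3aOE cortex. Its hippocampus values were 228, 119, 210.4, 238 and 207 CPM in WT and 202, 170.2, 231, 168 and 238 CPM in Ube3aOE mice. Aqp4 was higher in hippocampus in 10 of 10 mice, although the level of mouse 2 in hippocampus was below that of 8 of the 10 mice in cortex (0.47 ± 0.12, adjusted p = 0.00394 by edgeR). The bicarbonate cotransporter Slc4a4 (0.25 ± 0.09, adjusted p = 0.0198) and Atp1b2, a beta subunit of the sodium pump that is typical of astrocytes (0.24 ± 0.06, adjusted p = 0.00434), were each higher in 9 of 10 mice. The GABA transporter Slc6a11 (0.09 ± 0.07), the serine transporter Slc7a10 (0.19 ± 0.09) and Slc7a11 (-0.20 ± 0.17) did not pass the test. With the mouse as a replicate block, Slc7a10 did (0.20 ± 0.06, adjusted p = 0.00731 by edgeR).

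Of the 7 metabolic enzymes and lipid-binding proteins, 5 were higher in hippocampus, all by less than 0.5 on the log2 scale. Ndrg2, a protein of mature astrocytes (0.46 ± 0.05), Ppp1r3c, which targets a phosphatase to glycogen (0.44 ± 0.07), and the glycolytic enzyme Aldoc (0.42 ± 0.05) were separated between the regions in every library. Cbs, which makes cystathionine and hydrogen sulfide, was higher in 9 of 10 mice (0.26 ± 0.08, adjusted p = 0.00872 by edgeR). Fabp7, the most abundant of the 32 per length, lay at 389, 545, 558, 525 and 504 CPM in WT cortex and 521, 558, 690.0, 607 and 525 CPM in WT hippocampus. In Ube3aOE mice it lay at 429, 579, 549.6, 467 and 520.0 and 584, 706, 616, 494 and 527 CPM. The ranges overlapped, with 5 of the 10 hippocampus libraries above every cortex library. The hippocampus was higher in 10 of 10 mice, and the difference was close to the threshold (0.20 ± 0.08, adjusted p = 0.0418 by edgeR). It passed with the mouse as a block (adjusted p = 0.00404 by edgeR) and missed it in 5 of the 10 fits that left out 1 mouse.

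Aldh1l1, a folate enzyme used to mark all astrocytes, lay at 69.7, 66.5, 68.3, 76.1 and 73.9 CPM in WT cortex and 61.2, 57.6, 69.0, 66.2 and 53.5 CPM in WT hippocampus. The Ube3aOE values were 64.5, 84.9, 59.5, 59.4 and 85.1 and 62.3, 73.2, 67.1, 71.0 and 80.2 CPM. The regions overlapped, with 7 of 10 mice lower in hippocampus (-0.11 ± 0.07, adjusted p = 0.218 by edgeR). Its exons overlap those of another gene on the same strand and of a further gene on the opposite strand, as those of Glul do. The exons of Id4, Slc1a2, Slc25a18, Slc7a10 and Fgfr3 overlap those of genes on the opposite strand. The strand setting of the read counting is not stated in the sources used, and the part of these overlaps was not tested. Acsbg1, an acyl-CoA synthetase, did not pass the test (0.09 ± 0.08).

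Among the 5 secreted proteins, Clu, Apoe and Sparc were higher and Chrdl1 was lower in hippocampus. Clu (clusterin, or apolipoprotein J) lay at 195, 159, 162, 172 and 177 CPM in WT and 174, 136, 211, 203 and 165 CPM in Ube3aOE cortex. Its hippocampus values were 357, 270.2, 347, 335 and 362 CPM in WT and 337, 299, 299, 296 and 311 CPM in Ube3aOE mice, all above the cortex range (0.87 ± 0.07, adjusted p = 3.56e-09 by edgeR). Apoe lay at 551, 478, 530.4, 518 and 642 CPM in WT and 593, 515, 649, 586 and 615 CPM in Ube3aOE cortex. In hippocampus it lay at 877, 645, 922, 1045 and 980.0 and 957, 910.3, 854, 857 and 927 CPM. The hippocampus of WT mouse 2 alone fell below the highest cortex value, that of mouse 8, and all 10 mice had more Apoe in hippocampus (0.66 ± 0.07, adjusted p = 1.39e-07 by edgeR).

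Chrdl1 lay at 16.3, 13.4, 18.0, 20.2 and 17.0 CPM in WT and 16.5, 18.2, 14.3, 14.4 and 20.4 CPM in Ube3aOE cortex. In hippocampus it lay at 10.3, 12.4, 11.5, 8.21 and 11.3 and 11.3, 10.1, 11.4, 9.22 and 9.53 CPM. Every hippocampus library was below every cortex library (-0.69 ± 0.09, adjusted p = 1.35e-06 by edgeR). Sparc, a matrix protein that opposes hevin at synapses, was higher in hippocampus in 10 of 10 mice (0.37 ± 0.06, adjusted p = 3.89e-05 by edgeR), and Sparcl1, which encodes hevin, in 6 of 10 (0.04 ± 0.06).

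In WT libraries alone 19 of the 32 genes were higher and 3 lower in hippocampus, and in Ube3aOE libraries alone 20 were higher and 2 lower. Shares of all genes called in these smaller fits are not given, so the counts stand without a reference. The genes lower in WT were Gjb6, Chrdl1 and Aldh1l1, the last of which was at -0.20 there (adjusted p = 0.0406 by edgeR) and at 0.01 in Ube3aOE mice (adjusted p = 0.970 by edgeR). For Gfap the log2 fold change was 1.51 in WT and 1.13 in Ube3aOE mice, for Id4 1.03 and 1.84, for Gja1 0.76 and 0.39, and for Gjb6 -0.69 and -1.24. These pairs were compared by the interaction test at the end of the genotype comparison.

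Among 50 further genes of astrocytes and radial glia, 36 (72%) were higher in hippocampus and 4 (8%) were lower. The other 10 did not pass the test, and the median log2 fold change was 0.42. Over all genes tested, 25.3% were called higher and 25.6% lower. This further list was also chosen with earlier results known and was measured in the same libraries, so it is not an independent test. The largest differences were those of Hopx, a marker of quiescent stem cells (1.87 ± 0.15, adjusted p = 1.78e-08 by edgeR), of Agt, angiotensinogen (1.79 ± 0.31, adjusted p = 0.000111 by edgeR), and of the phosphorylase kinase subunit Phkg1 (1.04 ± 0.15). Pax6, a transcription factor of radial glia (0.98 ± 0.13), Lcat, a cholesterol acyltransferase (0.96 ± 0.11), and the zinc transporter Slc39a12 (0.92 ± 0.13) followed. Agt lay at 12.5, 7.71, 16.0, 24.4 and 10.6 CPM in WT and 13.4, 22.0, 18.4, 33.9 and 32.9 CPM in Ube3aOE hippocampus, where mice 9, 10, 4 and 7, the same 4 that were highest for Id4, had the most.

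Genes of other cell types were also called between the regions, to be read against the 25.3% of all genes called higher and the 25.6% called lower, and their part in the differences of the 32 genes was not tested. Of 8 pan-neuronal genes, 7 were lower in hippocampus and none was higher (summed level 7917 to 10074 CPM, against 10090.4 to 11891 CPM in cortex). Of 11 microglia genes, 9 were higher (187 to 299 against 159 to 229 CPM), and of 10 genes of dividing cells, 9 (149 to 197 against 119.9 to 138 CPM). All 6 ependymal genes were higher, at low levels (21.3 to 55.0 against 6.59 to 18.8 CPM), as were 5 of the 9 choroid plexus genes tested, with 1 lower (52.8 to 2089 against 58.0 to 92.1 CPM). In cortex Otx2 was at 0 in 5 libraries, and Ttr, the defining gene of choroid plexus, was at 0 in 2 and at 6.64 CPM or less in the others.

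Of 11 oligodendrocyte lineage genes tested, 4 were higher (468 to 787 against 427 to 621 CPM). Of 6 genes of immature neurons and intermediate progenitors, 4 were higher and 1 lower (856 to 1264 against 1008 to 1323 CPM). Among 10 endothelial and mural genes 2 were lower and none was higher (219.8 to 317 against 163 to 296 CPM), and among 5 meningeal genes 1 was lower and none higher (61.8 to 224 against 60.7 to 311 CPM), for either list 20.0% called lower, below the share of all genes. Leaving out the hippocampus of mice 7 and 9, which held the most choroid plexus RNA, gave 21 genes of the 32 higher and 2 lower in hippocampus. The share of all genes called in that fit is not given, so this count has no reference.

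Ube3aOE and WT mice were then compared within each tissue. Ube3a itself was higher in Ube3aOE mice by 1.32 ± 0.11 in hippocampus (adjusted p = 0.000441 by edgeR) and by 1.31 ± 0.11 in cortex (adjusted p = 0.000822 by edgeR), with no overlap. None of the 32 genes passed an adjusted p under 0.05 in either tissue by edgeR, DESeq2 or limma voom. Over all genes 1 of 15220 in hippocampus (0.00657%) and 1 of 14947 in cortex (0.00669%) passed, which was Ube3a. The median log2 fold change of the 32 genes was -0.03 in hippocampus and 0.02 in cortex, where that of all genes was 0.00 in both. In each tissue the 95% confidence interval of 28 of the 32 genes lay within 0.5 of no change on the log2 scale. The exceptions were Gfap, Ntsr2, Id4 and Gjb6 in hippocampus and Slc1a2, Slc7a11, Gjb6 and Sox9 in cortex, for which these libraries leave a change beyond 0.5 possible.

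**Figure D4:**
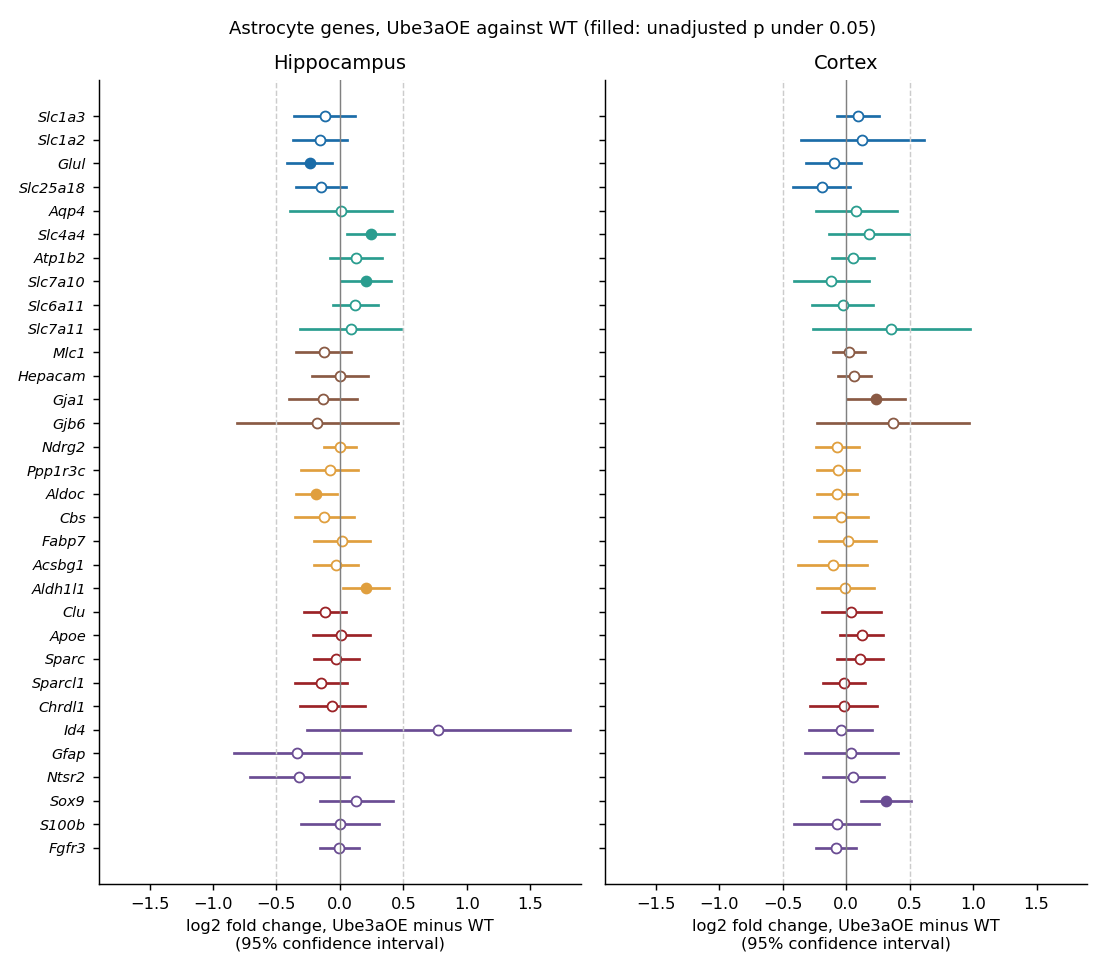
log2 fold change of the 32 genes between Ube3aOE and WT mice in hippocampus (left) and cortex (right), with 95% confidence intervals from edgeR (5 against 5 libraries). Colors give the role groups in the order of the plot of region differences, filled points had an unadjusted p under 0.05, and dashed lines mark 0.5 in either direction; most intervals lie between the dashed lines.

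Before adjustment, 5 of the 32 genes (15.6%) had a p under 0.05 in hippocampus, against 7.21% of all genes. Glul lay at 496, 461, 558, 468 and 542 CPM in WT and 496, 426, 454, 371 and 396 CPM in Ube3aOE hippocampus, with overlap (-0.24 ± 0.08, unadjusted p = 0.0121, adjusted p = 0.668 by edgeR). Slc4a4 lay at 107, 79.6, 88.7, 93.8 and 80.5 and 106, 97.0, 109, 102 and 119 CPM, again with overlap (0.24 ± 0.09, unadjusted p = 0.0136 by edgeR). The Aldoc values of 311, 280.1, 362, 316 and 330.2 CPM in WT and 314, 282, 292, 257 and 260.0 CPM in Ube3aOE mice overlapped as well (-0.19 ± 0.07, unadjusted p = 0.026 by edgeR). Slc7a10 lay at 24.96, 18.6, 22.9, 23.0 and 23.6 CPM in WT and 25.8, 26.3, 22.9, 27.3 and 28.4 CPM in Ube3aOE hippocampus, with mouse 8 inside the WT range and the other 4 Ube3aOE mice above it (0.21 ± 0.09, unadjusted p = 0.0395 by edgeR). Aldh1l1, with its values given above, was the other (0.20 ± 0.08, unadjusted p = 0.0321 by edgeR), and for all 5 the adjusted p was 0.668. Without the hippocampus of mice 7 and 9 the number fell to 1, and without WT mouse 2 it was 9, with none passing after adjustment in either fit. The 7.21% of all genes is from the fit with no library left out. Shares of all genes in the smaller fits are not given, so these numbers have no reference.

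In cortex 2 of the 32 genes (6.25%) had an unadjusted p under 0.05, against 4.44% of all genes. Sox9 lay at 17.3, 14.2, 18.6, 15.1 and 17.5 CPM in WT and 20.7, 21.9, 22.7, 18.5 and 19.1 CPM in Ube3aOE cortex, where only mouse 9 fell below the highest WT value (0.31 ± 0.09, unadjusted p = 0.00451, adjusted p = 0.96 by edgeR). Gja1 lay at 116, 92.6, 109, 115 and 123 CPM in WT and 108, 114, 161, 133 and 138 CPM in Ube3aOE cortex, with overlap (0.23 ± 0.10, unadjusted p = 0.0425 by edgeR). With 1 mouse left out, 1 to 5 of the 32 had an unadjusted p under 0.05 (1 without mouse 1, 3, 4, 8, 9 or 10, and 5 without mouse 6). Shares of all genes in those fits are not given. In cortex Gfap differed between the genotypes by 0.04 ± 0.17, Aqp4 by 0.08 ± 0.15 and Fabp7 by 0.01 ± 0.10. In hippocampus the differences were -0.34 ± 0.22 for Gfap (95% confidence interval -0.84 to 0.16), 0.01 ± 0.18 for Aqp4 and 0.01 ± 0.10 for Fabp7. Gfap in hippocampus was lowest in mouse 9 of the Ube3aOE and mouse 2 of the WT mice.

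By role, the 4 genes of glutamate uptake and metabolism differed by -0.24 to -0.12 in hippocampus (all 4 below 0) and by -0.19 to 0.13 in cortex. The 6 transport genes differed by 0.01 to 0.24 in hippocampus, all above 0, and by -0.12 to 0.36 in cortex. Of all genes tested, 50.7% were above 0 in hippocampus. The genes of a group were measured in the same libraries, so their signs are not independent of each other. In the gap junction group the hippocampus differences were -0.18 to 0.00 and the cortex differences 0.02 to 0.37, and in the metabolic group -0.19 to 0.20 and -0.11 to 0.01. For the secreted proteins the differences were -0.15 to 0.01 and -0.02 to 0.12. The group of the cytoskeleton, receptors and transcription had the widest range in hippocampus, -0.34 to 0.77, against -0.08 to 0.31 in cortex. Its ends in hippocampus were Gfap and Id4, whose difference of 0.77 ± 0.46 was the largest of the 32 but had a 95% confidence interval from -0.26 to 1.81 (unadjusted p = 0.125 by edgeR). Ntsr2 differed by -0.32 ± 0.18 in hippocampus (unadjusted p = 0.099 by edgeR). None of the 50 further astrocyte and radial glia genes passed in either tissue by edgeR. Their medians were 0.03 in hippocampus and 0.06 in cortex. Of the 50, 6 in each tissue (12%) had an unadjusted p under 0.05, against 7.21% of all genes in hippocampus and 4.44% in cortex.

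Whether the difference between genotypes was itself different in the regions was tested as an interaction over all 20 libraries. None of the 32 genes and none of all 15661 genes (0%) passed by edgeR. Gja1 alone among the 32 (3.13%) had an unadjusted p under 0.05 (-0.36 ± 0.17, unadjusted p = 0.0465, adjusted p = 0.997 by edgeR), against 3.77% of all genes. For Id4 the estimate was 0.83 ± 0.49 and for Gfap -0.37 ± 0.29, so the unequal values of WT and Ube3aOE mice given above for these genes were not distinguished by the test. With the mouse as a replicate block 4 of the 32 (12.5%; Slc7a10, Gja1, Ntsr2 and Aldh1l1) had an unadjusted p under 0.05, against 6.03% of all genes in that fit, and again none passed after adjustment. With 1 mouse left out the number in the fit without the block was 0 to 4, the highest without WT mouse 2. Shares of all genes in those fits are not given.

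Many of the 32 genes also rose and fell together from library to library. After the mean of each group was taken out, the log2 CPM of 2 members correlated over the 20 libraries with a median r of 0.38 (496 pairs), and 85.9% of the pairs were above 0. Each member was also set against the mean of the other 31: the median r was 0.57 and 21 of 32 (65.6%) exceeded 0.5, whereas 10.5% of the other 15629 genes exceeded 0.5 with the mean of the 32. Aqp4, Apoe and Gja1 followed the other members most closely (r from 0.84 to 0.85) and Fabp7 (0.02) and Chrdl1 (0.03) least. These values describe libraries that share animals, dissections and depth, 2 for each mouse. Some lists of other cell types moved with the 32 genes as well. The mean deviation of the 32 correlated over the 20 libraries with that of the microglia list (r = 0.87) and of the endothelial and mural list (0.71), beside 0.90 for the further astrocyte and radial glia list. For oligodendrocyte lineage genes r was 0.57, for dividing cells 0.41 and for meningeal genes 0.25. Immature neuron genes were at 0.13, ependymal genes at 0.10 and choroid plexus genes at -0.22. Over the hippocampus libraries the dividing, ependymal and immature neuron lists were at 0.76, 0.78 and 0.68, and over the cortex libraries at -0.16, -0.42 and -0.34. With the pan-neuronal list r was -0.94 over the 10 hippocampus libraries and 0.35 over the 10 cortex libraries. These correlations are descriptions, with no test.

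WT mouse 2 stood apart in this. Its members deviated on average by -0.31 from the WT mean in hippocampus and by -0.23 in cortex on the log2 scale, and the other 18 libraries deviated from their group by -0.10 to 0.17. Without mouse 2 the median r of pairs was 0.24, and 12 of the 32 exceeded 0.5 with the mean of the other members, against 3.76% of the other genes. The correlation with the microglia list was then 0.72, and with the further astrocyte and radial glia list 0.73. With the endothelial and mural list it was 0.41, with oligodendrocyte lineage genes 0.41 and with dividing cells -0.02. Over the hippocampus libraries without mouse 2 the pan-neuronal list was at -0.73. The dividing, ependymal and immature neuron lists were there at 0.41, 0.41 and 0.45. In the hippocampus of mouse 2 the microglia list was also low (-0.53), and the pan-neuronal list was high (0.23), with a summed level of 10074 CPM against 7917 to 8566 CPM in the other 9 hippocampus libraries. Its cortex was low in microglia genes (-0.25) and in endothelial and mural genes (-0.66). Their part in the low values of the 32 genes was not tested. Without mouse 2, 23 of the 32 genes were higher and 2 lower in hippocampus than in cortex. Without the cortex library of mouse 2 alone the numbers were 22 and 2. For neither fit is the share of all genes given, so these counts have no reference.

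**Figure D5:**
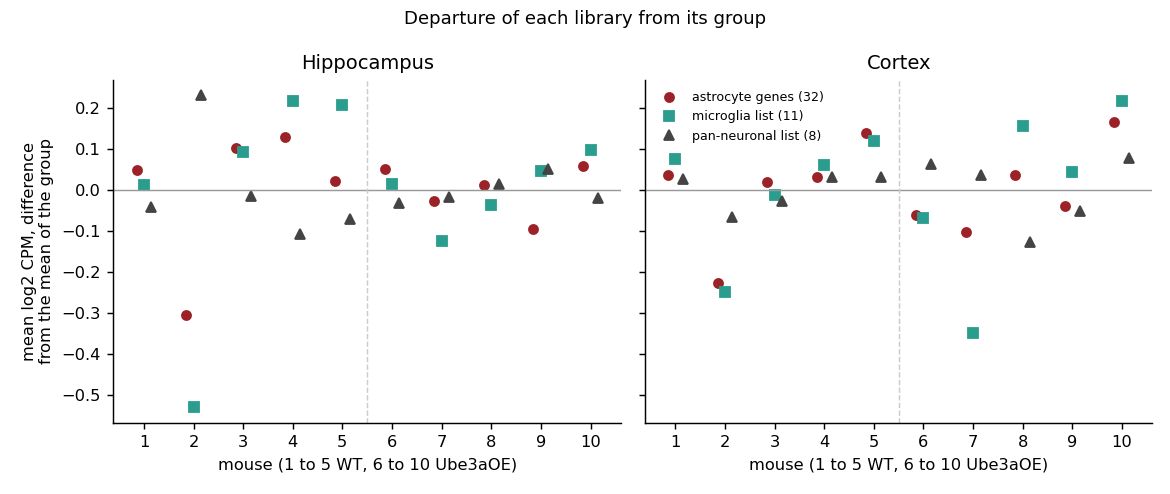
Mean difference of each library from its group on the log2 CPM scale for the 32 astrocyte genes, 11 microglia genes and 8 pan-neuronal genes, by mouse number in hippocampus (left) and cortex (right). WT mouse 2 is the lowest for the astrocyte genes in both regions, at -0.31 and -0.23.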

How the data were processed

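RNA of dissected cortex and hippocampus was sequenced as stranded mRNA libraries, 1 for each tissue of each mouse. The authors deposited whole-number counts of reads on 47729 genes for each library, without normalization. The submitters' processing notes name HISAT2 2.1.0, HTSeq 0.11.2 and the mouse build GRCm38. Reads aligned to more than 1 place (10.3% to 13.7%), outside genes (4.46% to 7.12%), over several genes (0.756% to 0.879%) or not aligned (2.74% to 8.66%) were not in these counts, which lowers genes that have close copies. Exon lengths and positions came from GENCODE M21, which holds 47310 of the identifiers and all 32 genes, and promoters from RefSeq.

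From the deposited counts, edgeR 4.0.16 in R 4.3.3 (TMM factors, filterByExpr, robust quasi-likelihood F test) gave log2 fold changes with SE and Benjamini-Hochberg adjusted p over all genes tested, called under 0.05. The regions and the interaction were fitted over 20 libraries with 4 group means, and the genotypes over the 10 libraries of each tissue. Confidence intervals are at 95%. Levels used TMM CPM, and correlations log2 CPM with a prior count of 2. The fits were also run on simulated data, with outcomes not given here. In the simulated data no effect was shared by the libraries of a mouse, so they do not check the pairing. Motif searches used Python 3.11.15 (pandas 2.3.3), and figures were drawn with matplotlib 3.10.9.

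The labels number the mice, so that same-numbered libraries come from 1 animal. As a check of this pairing, the correlation across genes of their deviations from the group means had its median at 0.21 (range -0.04 to 0.25) and exceeded 0.1 in 9 of 10 mice. The fit over both regions treats the 2 libraries of a mouse as separate samples, and the mouse as a block was the alternative. The p-values of the genotype comparisons rest on the spread between mice. Those of the region and interaction fits without the block rest on the spread between libraries within each group.

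The 32 genes, their role groups, the marker lists and the tests were chosen with earlier results of these data known. Genes are given by mouse if they had 1 of the 12 largest region differences or are Gfap, Aqp4, Aldh1l1, Slc1a2, Slc1a3, Gja1 or Fabp7, and in the genotype comparisons if their unadjusted p was under 0.05. Of the further astrocyte list at most the 6 largest differences are named. Otx2 and Ttr were named after their values were seen. The alternatives were DESeq2 1.42.0, limma voom (limma 3.58.1), other scaling factors, no filter, sex as a covariate, all libraries in 1 fit, each genotype alone and each mouse left out. Leaving out single libraries, and mouse 2 in the correlations, was added after the values were seen.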

Additional observations from a re-analysis of the deposited data

Results flagged for a closer look

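A library was marked where its gap to the nearest of the other 4 in its group took more than 0.71 of the range of the group. Chance marks about 1 in 20 groups, and 9 of 128 were marked (7.03%), all in mice 2 and 10. In WT mouse 2 the low values were those of Aqp4 (118.6 CPM, against 207 to 238 CPM in the other 4 mice), Gja1 (126.2 CPM, against 192 to 214 CPM) and Mlc1 (165.8 CPM, against 219 to 238 CPM) in hippocampus, and of Slc1a3 (290.9 CPM, against 354 to 369 CPM), Slc4a4 (51.18 CPM, against 77.0 to 87.3 CPM) and Slc6a11 (275.4 CPM, against 374 to 388 CPM) in cortex. In Ube3aOE mouse 10 the high values were those of S100b (25.26 CPM, against 17.5 to 18.4 CPM) and Slc6a11 (485.1 CPM, against 354 to 387 CPM) in hippocampus and of Ndrg2 in cortex (304.8 CPM, against 233 to 253 CPM). These genes kept the direction of their region difference without either mouse.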

How the results depend on the processing

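Between 19 and 23 of the 32 genes were higher in hippocampus over all alternatives, and 2 were lower, or 3 in WT libraries alone. The number higher was 21 to 23 with 1 mouse left out. With the mouse as a replicate block 23 were higher and 2 lower. The shares of all genes called under these alternatives are not given, so the counts stand without a reference. The block changed the region call of Slc7a10 and of no other member, and in the interaction it raised the number with an unadjusted p under 0.05 from 1 to 4. No member was called between the genotypes or in the interaction under any alternative. The median region difference of 0.39 was 0.45 with library totals alone, 0.44 in WT and 0.37 in Ube3aOE libraries alone, 0.36 to 0.42 with 1 mouse left out and 0.35 without the cortex library of WT mouse 2. The median genotype difference was -0.0891 to 0.00636 in hippocampus and -0.0173 to 0.0377 in cortex with 1 mouse left out. In cortex it was 0.0440 with library totals alone and -0.0170 without the cortex library of WT mouse 2. The median interaction was -0.106 with library totals alone and -0.109 to -0.0143 with 1 mouse left out. Of the genes that were not called, Glul turned to -0.0467 in Ube3aOE libraries alone and to -0.0122 without the cortex library of WT mouse 2 (-0.0216 to 0.0637 with 1 mouse left out), Slc25a18 to 0.0233 with library totals alone (-0.0682 to 0.00938 with 1 mouse left out), Aldh1l1 to 0.00766 and Sparcl1 to -0.0165 in Ube3aOE libraries alone. Fabp7 lost its call without the filter on low counts, in either genotype alone and without mouse 3, 4, 6, 7 or 8, Slc1a2 and Cbs lost it in Ube3aOE libraries alone, and Aqp4 and Slc4a4 in WT libraries alone, where fewer samples were fitted. The ratio of summed levels stayed between 1.29 and 1.36. Depth limits Gjb6 most, with 33 reads in its lowest library.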

Other observations

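The cortex library of Ube3aOE mouse 8 was the highest of the 10 cortex libraries for several genes at once, which were picked after their values were seen. Gfap lay at 159 CPM there, against 83.0 to 135 CPM in the other 9, and Gja1 at 161 CPM, against 92.6 to 138 CPM. Gjb6 lay at 15.2 CPM, against 4.36 to 7.80 CPM, and Slc7a11 at 45.2 CPM, against 13.6 to 30.8 CPM. Of the further astrocyte list, Agt lay at 17.6 CPM, against 3.10 to 8.29 CPM, and Hopx at 25.3 CPM, against 13.5 to 22.8 CPM. Glul, Acsbg1 and Slc25a18 were not raised in this library, and Acsbg1 (57.0 CPM) and Slc25a18 (35.7 CPM) were at their lowest of the 10. In the same library the summed level of the meningeal genes was the highest of the 10 (311 CPM, against 60.7 to 189.6 CPM). Its pan-neuronal genes (10090.4 CPM, against 10656 to 11891 CPM) and oligodendrocyte lineage genes (427 CPM, against 429.7 to 621 CPM) were the lowest, and their part in these values was not tested.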
